A study of Mus musculus with 70 samples.

Results

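The measurements described here are the RNA levels of 8 cell-surface adhesion genes in circulating mouse leukocytes: the integrin alpha subunits Itgam, Itgal, Itga4 and Itga6, the integrin beta subunits Itgb1, Itgb2 and Itgb7, and Selplg, which encodes the selectin ligand PSGL-1. The genes are listed by name, and all 8 were found among the 52636 genes of the count table. C57BL/6J mice aged 7 to 8 weeks were exposed for 10 days to CSDS (chronic social defeat stress), in which a mouse is repeatedly attacked by a larger CD-1 aggressor, and were tested for social interaction (SI) 24 h after the last defeat. Defeated mice were called susceptible (SUS) when the SI ratio, time near another mouse against time near an empty enclosure, was below 1 and resilient (RES) otherwise, and unstressed mice served as controls (CON). Trunk blood was sorted by flow cytometry into Ly6Chigh monocytes, Ly6Clow monocytes, B cells and T cells, and each sorted sample gave 1 RNA-seq library.

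The comparison across these 12 groups asks which adhesion genes each leukocyte class carries and whether their RNA differed after social stress. The labels give no transgene or drug for any group, and they do not say which mouse a library came from. Libraries of different cell types were therefore treated as independent, although the labels do not say whether any came from the same mouse, and nothing in the labels shows that libraries of a group came from separate mice. P-values then measure the spread between these libraries, which may in part be technical. The labels also name brain as the source, while the series' design text and the study's methods describe sorted blood cells. The sort used antibodies to CD11b, Ly6C, Ly6G, B220 (B cells) and CD90.2 (T cells), and the study's gating plots took monocytes from CD11b+ cells without Ly6G. Itgam encodes CD11b, so the Itgam difference between monocytes and lymphocytes is given as a description only.

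Of 70 libraries, 68 were used, with 6 per group except Ly6Clow CON (n = 4), B-cell RES (n = 5) and T-cell RES (n = 5). The library labelled B cells, RES, replicate 52 held 412 CPM (read counts scaled to the effective library size) of the T-cell gene Cd3e and 5.76 CPM of the B-cell gene Cd79a. The library labelled T cells, RES, replicate 70 held 0.143 CPM of Cd3e and 1417 CPM of Cd79a. Both went against their labels and were left out, and the alternative that keeps them is given below. Library totals ran from 19769835 to 67038231 counts, with a median of 37105584. In CON libraries the 5 defining B-cell markers summed to 4905 to 5322 CPM in B cells and to at most 23.1 CPM in any other cell type, and the 5 T-cell markers to 1568 to 2000 CPM in T cells and at most 33.5 CPM elsewhere. The 5 Ly6Clow monocyte markers summed to 4307 to 5651 CPM in Ly6Clow and 1145 to 1398 CPM in Ly6Chigh CON libraries. The 5 Ly6Chigh monocyte markers summed to 6162 to 7413 CPM in Ly6Chigh, 237 to 375 CPM in Ly6Clow and 73.6 to 157 CPM in T-cell CON libraries. The Ly6Clow gate also held RNA of 7 natural killer (NK) cell markers, 318 to 1631 CPM summed over all its libraries, with none of the 7 at 0 in every library of a group. CON T-cell libraries held 85.2 to 242.5 CPM of the same markers. In bulk libraries of this kind, fewer cells of a type and less RNA per cell cannot be told apart.

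Integrins are heterodimers of an alpha and a beta chain that let leukocytes arrest on and cross vessel walls once inside-out signalling has switched them to a high-affinity state. Itgal and Itgam pair with Itgb2 to form LFA-1 and Mac-1, which bind ICAM-1 and related ligands. Itga4 pairs with Itgb1 to form VLA-4, which binds VCAM-1 and fibronectin, or with Itgb7 to form the gut-homing receptor for MAdCAM-1, while Itga6 pairs with Itgb1 to form a laminin receptor. PSGL-1, the Selplg product, binds selectins during rolling once enzymes such as Fut7 and Gcnt1 have modified its sugars.

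The 250 bases before the annotated start site are shown for Itgam, the member that defined the monocyte gate, and for Itgb7, the member with the lowest adjusted p in a stress contrast. RefSeq sequences of build GRCm38.p6 were held for 4 of the 8 members. The start sites are those that go with these sequences. For Itgb7, on the - strand, the GENCODE gene given below starts at 102231944, which lies inside the stretch shown. Capitals mark the purine-rich letters GAGGAA on either strand, a core motif of the PU.1 family of myeloid and B-cell transcription factors.
Itgam (chr7:128062390-128062639, + strand): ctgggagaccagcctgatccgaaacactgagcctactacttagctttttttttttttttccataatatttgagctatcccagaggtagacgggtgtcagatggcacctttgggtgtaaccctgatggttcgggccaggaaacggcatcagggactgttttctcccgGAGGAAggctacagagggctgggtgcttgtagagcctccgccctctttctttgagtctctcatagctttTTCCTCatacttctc
Itgb7 (chr15:102231936-102232185, - strand): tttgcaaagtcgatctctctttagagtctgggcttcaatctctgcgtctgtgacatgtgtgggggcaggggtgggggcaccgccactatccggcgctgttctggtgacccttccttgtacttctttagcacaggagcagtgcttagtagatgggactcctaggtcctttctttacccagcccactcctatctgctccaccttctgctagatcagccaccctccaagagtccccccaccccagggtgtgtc
The Itgam stretch held 2 matches, starting 84 and 15 bases before the start site, and the Itgb7 stretch held 0. Of the other members with a sequence, not shown here, Itgb1 held 1 match, starting 9 bases before the start site, and Itga4 held 0. Over 32536 distinct stretches of the same length, 23.4% held at least 1 match on either strand, so the letters alone describe the sequence and mark no bound site.

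In CON mice the 8 genes divided the 4 cell types into distinct adhesion profiles. Ly6Clow monocytes carried the most Itgal, Itga4, Itgb1 and Itgb2, T cells the most Itga6, Itgb7 and Selplg, and B cells the least of Itgal, Itga4, Itgb1, Itgb2 and Selplg. CON libraries of the Ly6Clow gate also held 318 to 1034 CPM of NK markers, against 3.48 to 45.5 CPM in Ly6Chigh monocytes. The part of NK RNA in the Ly6Clow levels was not tested. The edgeR quasi-likelihood test across the 22 CON libraries called a gene past 2 thresholds, an adjusted p below 0.05 and a log2 fold change beyond 1 in either direction. It called 7 of 8 members between Ly6Chigh monocytes and B cells, where 33.1% of all tested genes were called. The same test called 7 of 8 between Ly6Clow monocytes and B cells (30.3% of all genes), 7 of 8 between Ly6Clow monocytes and T cells (28.5%), 6 of 8 between B and T cells (20.2%), 4 of 8 between Ly6Chigh monocytes and T cells (32.8%), and 2 of 8 between both monocyte classes (11.2%). On adjusted p alone, 5 of 8 members passed between both monocyte classes (19.3% of all genes) and 8 of 8 between Ly6Chigh monocytes and T cells (45.7%). The Itgam calls in 4 of these 6 pairs, those between a monocyte class and a lymphocyte class, follow from the gate. Itgam is also among the 6 members called between B and T cells, at only 0.298 to 3.82 CPM in these CON libraries. The Ly6Chigh monocyte markers summed to 73.6 to 157 CPM in CON T cells and 4.19 to 10.0 CPM in CON B cells. Their part in this Itgam call was not tested.

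**Figure D1:**
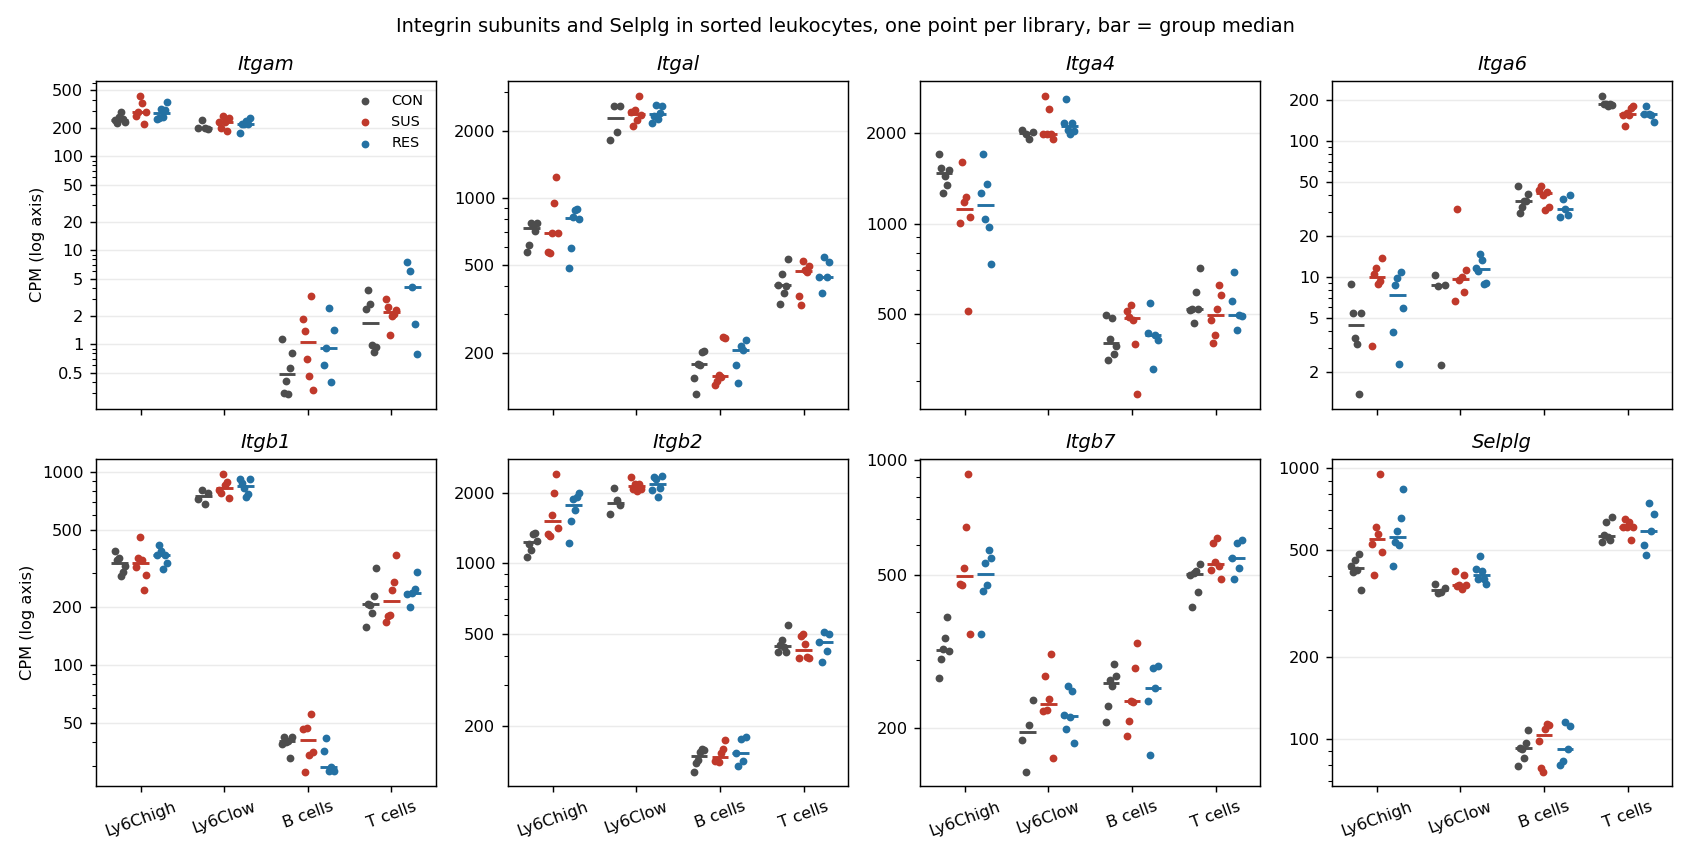
Level of each of the 8 genes in CPM on a logarithmic axis, with 1 point per library (68 libraries), 4 cell types along the horizontal axis, colours for CON, SUS and RES and a bar at each group median. Itgam was 197 to 297 CPM in CON monocytes and at most 3.82 CPM in CON lymphocytes, whereas Itga6 was highest in T cells.

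Itgal encodes the alpha chain of LFA-1 (CD11a; chr7, 127296260 to 127335138, + strand of build GRCm38, which is mm10). It stood at 1808, 1978, 2572 and 2591 CPM in the 4 Ly6Clow CON libraries. Ly6Chigh monocytes ran from 568 to 769 CPM with a median of 731, T cells from 333 to 529 with a median of 403, and B cells from 131 to 204 with a median of 178. No group overlapped another, and the log2 fold change of Ly6Chigh vs. Ly6Clow monocytes was -1.69 (SE 0.13, edgeR adjusted p = 4.39e-10).

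Itga4, the alpha chain of VLA-4 (chr2, 79255426 to 79333123), followed the same order with narrower steps. It was 1911, 1990, 2014 and 2052 CPM in Ly6Clow monocytes, and 1266 to 1701 CPM with a median of 1476 in Ly6Chigh monocytes. T cells held 466 to 713 CPM (median 520) and B cells 351 to 498 CPM (median 401), ranges that overlapped. Ly6Chigh monocytes were lower than Ly6Clow monocytes by edgeR with a log2 fold change of -0.45 (SE 0.11, adjusted p = 0.00332), although adjusted p was 0.0736 when all 12 groups shared 1 fit. B cells were lower than T cells by edgeR with a log2 fold change of -0.44 (SE 0.10, adjusted p = 0.000798).

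Itga6, the alpha chain of the laminin receptor VLA-6 (chr2, 71745616 to 71858416), showed the opposite arrangement. T cells held 181 to 216 CPM with a median of 189, B cells 29.8 to 46.5 CPM with a median of 36.3, and Ly6Chigh monocytes 1.38 to 8.88 CPM with a median of 4.45. The Ly6Clow values were 2.26, 8.55, 8.78 and 10.4 CPM and overlapped those of Ly6Chigh monocytes (log2 fold change -0.71, SE 0.36, edgeR adjusted p = 0.205). Monocyte values rested on 55 to 1537 counts a library across all conditions. The log2 fold change of B vs. T cells was -2.41 (SE 0.33, edgeR adjusted p = 7.39e-06).

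Itgam, the alpha chain of Mac-1 (chr7, 128062640 to 128118491), did not separate the monocyte classes. Ly6Chigh CON libraries held 224 to 297 CPM with a median of 245, and the Ly6Clow CON libraries 197, 199.6, 199.9 and 241 CPM. The log2 fold change was 0.25 (SE 0.33, edgeR adjusted p = 0.70). In the lymphocyte gates, the CON levels were 0.298 to 1.14 CPM in B cells and 0.826 to 3.82 CPM in T cells.

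Itgb2 encodes the common beta chain (CD18) of LFA-1 and Mac-1 (chr10, 77530252 to 77565708). It was 1630, 1780, 1863 and 2094 CPM in Ly6Clow monocytes, 1064 to 1352 (median 1229) in Ly6Chigh monocytes, 415 to 542 (median 443) in T cells and 128 to 160 (median 150) in B cells. The 4 ranges did not overlap. Between B cells and Ly6Clow monocytes the log2 fold change was 3.69 higher in the monocytes (SE 0.10, edgeR adjusted p = 2.3e-20), the third smallest p of 21032 genes tested.

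Itgb1, the beta chain of the VLA integrins (chr8, 128685654 to 128733200), was 687, 725, 776 and 809 CPM in Ly6Clow and 291 to 388 CPM (median 339) in Ly6Chigh monocytes. T cells ran from 158 to 320 CPM (median 206) and overlapped Ly6Chigh monocytes, yet the fit placed them apart (log2 fold change of Ly6Chigh vs. T cells 0.64, SE 0.12, edgeR adjusted p = 5.05e-05). B cells held only 33.1 to 42.5 CPM (median 40.1).

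Itgb7, the beta chain of the gut-homing integrin (chr15, 102215995 to 102231944, - strand), broke this order. T cells held 414 to 536 CPM (median 503), Ly6Chigh monocytes 270.0 to 390.1 CPM (median 319), B cells 207 to 293 CPM (median 262), and Ly6Clow monocytes 154, 187, 204 and 237 CPM. Among the 7 integrin members it was the only one higher by adjusted p in Ly6Chigh than in Ly6Clow CON monocytes (log2 fold change 0.72, SE 0.12, edgeR adjusted p = 4.93e-05). Ly6Clow monocytes and B cells, neighbours in this order, overlapped (log2 fold change -0.34, SE 0.12, edgeR adjusted p = 0.0221), and the adjusted p was 0.0622 or 0.119 without Ly6Clow CON replicate 21 or 24 and 0.0601 in a fit of all 12 groups.

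Selplg (chr5, 113818536 to 113832644, - strand) was 533 to 660 CPM (median 561) in T cells, 356 to 482 CPM (median 428) in Ly6Chigh monocytes and 79.1 to 107 CPM (median 92.1) in B cells. The Ly6Clow libraries held 346, 349, 360 and 373 CPM. The monocyte classes overlapped and did not pass the threshold (log2 fold change 0.25, SE 0.10, edgeR adjusted p = 0.0664), although leaving out any of 4 single CON libraries, which were Ly6Chigh replicate 16, B-cell replicates 38 and 50 and T-cell replicate 68, moved adjusted p to between 0.0243 and 0.0456. B cells were lower than T cells with a log2 fold change of -2.70 (SE 0.09, edgeR adjusted p = 1.88e-18).

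Levels can be set against each other between genes only per length, so CPM were divided by the exon length of each gene in kilobases. Among the 3 beta members of CON mice, Itgb2 made up 66.7% ± 1.88 (SD, n = 6) of the summed CPM per kb in Ly6Chigh and 70.3% ± 2.43 (SD, n = 4) in Ly6Clow monocytes. In lymphocytes the leading beta chain on this scale was Itgb7, with 61.2% ± 1.76 (SD, n = 6) in B cells and 46.6% ± 3.25 (SD, n = 6) in T cells. Itgb1 contributed between 6.53% of the sum in B cells and 21.4% in Ly6Clow monocytes.

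Among the 4 alpha members, Itgal led in Ly6Clow monocytes with 64.5% ± 4.01 (SD, n = 4) and in T cells with 50.6% ± 3.46 (SD, n = 6). Itgal and Itga4 were close to level in Ly6Chigh monocytes, at 40.5% ± 4.2 and 40.2% ± 4.70 (SD, n = 6 each). Itga4 stood at 49.2% ± 4.95 in B cells, where Itgal was 43.8% ± 5.20 (SD, n = 6 each). The orders depend on the length used, because Itga4 has 13978 bases of exon but 3096 of coding sequence: with coding length, Itga4 moved ahead of Itgal in all cell types where it was behind, and 2 to 6 of the 28 gene pairs in a cell type changed order.

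**Figure D2:**
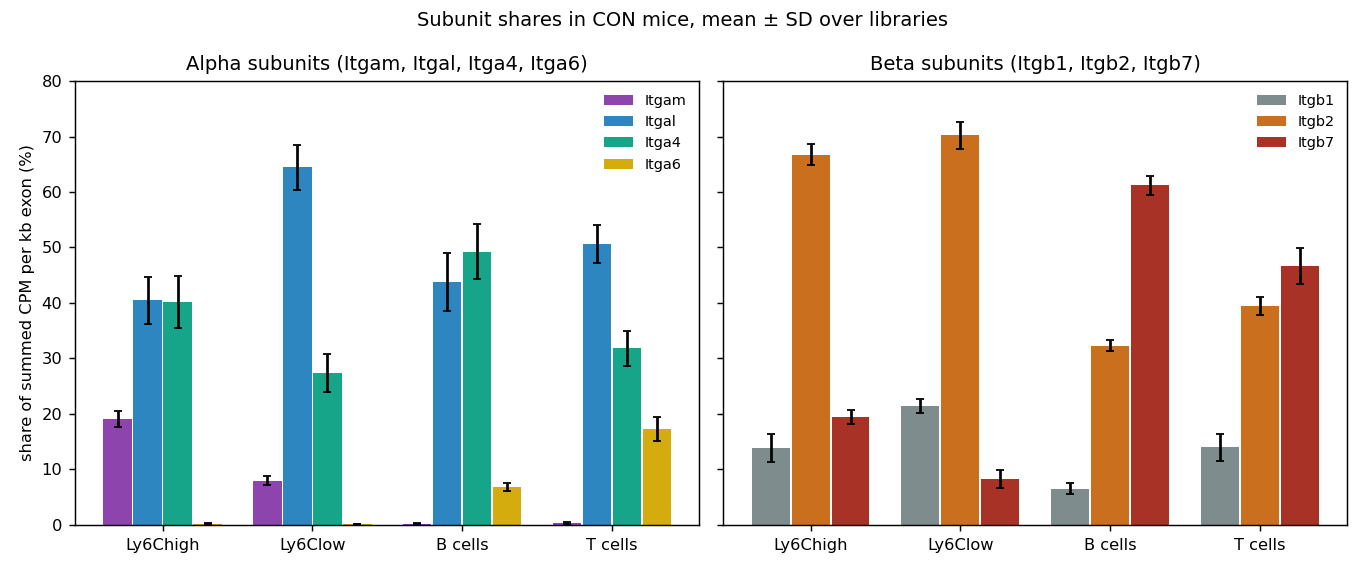
Share of each subunit, in percent, of the summed CPM per kb of exon over the 4 alpha members (left) and the 3 beta members (right) in CON libraries of each cell type. Bars are means and error bars SD over 6 libraries, or 4 for Ly6Clow monocytes, and Itgb2 leads the beta members in monocytes while Itgb7 leads them in lymphocytes.

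The only stress contrast with a member past adjusted p was in Ly6Chigh monocytes. In SUS vs. CON mice none of 8 members passed both thresholds, where 3.45% of 16955 genes did, and DESeq2 also gave 0. By adjusted p alone 1 member passed, Itgb7, where 12.6% of all genes passed (8.78% of all genes in the higher direction). At an unadjusted p under 0.05 there were 5 members, against 26.5% of all genes. The median log2 fold change of the members was 0.35 and that of all genes -0.05. In RES vs. CON mice 0 members passed either rule by edgeR, where 0.997% of all genes passed both thresholds and 4.97% passed on adjusted p, and 3 members had an unadjusted p under 0.05, against 21.2% of all genes. No member had an unadjusted p under 0.05 in SUS vs. RES mice, where 3.66% of genes did and 0.0059% passed on adjusted p.

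Itgb7 stood at 270.0 to 390.1 CPM (median 319) in Ly6Chigh CON libraries, at 353 to 919 CPM (median 498) in SUS libraries and at 352 to 582 CPM (median 505) in RES libraries. All SUS and RES libraries but 1 of each lay above the highest CON library. The log2 fold change was 0.78 in SUS vs. CON mice (SE 0.18, edgeR adjusted p = 0.00630) and 0.59 in RES vs. CON mice (SE 0.18, edgeR adjusted p = 0.0555). Without Ly6Chigh SUS replicate 14 the first was 0.55, still past adjusted p, and the second passed by edgeR without SUS replicate 14 or 17 or RES replicate 3 (adjusted p = 0.00701, 0.0370 and 0.0283). SUS and RES overlapped, with a log2 fold change of 0.19 (SE 0.18, edgeR adjusted p = 0.999). Both comparisons use the same CON libraries.

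Itgb2 stood at 1064 to 1352 CPM (median 1229) in CON, 1309 to 2421 CPM (median 1514) in SUS and 1225 to 2005 CPM (median 1787) in RES Ly6Chigh monocytes, with overlap at the low end. Its log2 fold change was 0.43 in SUS vs. CON mice (SE 0.15, edgeR adjusted p = 0.0658) and 0.46 in RES vs. CON mice (SE 0.15, edgeR adjusted p = 0.0730). Selplg ran from 356 to 482 CPM (median 428) among CON libraries, 404 to 953 CPM (median 549) in SUS and 435 to 837 CPM (median 559) in RES libraries. The Selplg log2 fold changes were 0.44 and 0.46 (SE 0.17 each, edgeR adjusted p = 0.1 and 0.123). Without Ly6Chigh SUS replicate 14, the SUS vs. CON log2 fold changes were 0.26 for Itgb2 (edgeR adjusted p = 0.223) and 0.21 for Selplg (edgeR adjusted p = 0.378), while in RES vs. CON mice, of which it is no member, both passed (edgeR adjusted p = 0.0164 and 0.0261). Itgb2 also passed in SUS vs. CON mice without SUS replicate 2, 5 or 17 (edgeR adjusted p = 0.0393 to 0.0492) and in RES vs. CON mice without RES replicate 3 (0.0313), and Selplg in SUS vs. CON mice without SUS replicate 5 (0.0447).

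The alpha chains had log2 fold changes of both signs in Ly6Chigh monocytes. Itga4 ran from 1266 to 1701 CPM (median 1476) in CON, from 512 to 1604 CPM (median 1116) in SUS and from 733 to 1712 CPM (median 1152) in RES libraries, and the groups overlapped. The log2 fold change was -0.46 in SUS vs. CON mice (SE 0.20, edgeR adjusted p = 0.143, or 0.0405 without SUS replicate 5). Itga6, at a low level, had medians of 4.45, 9.91 and 7.30 CPM in CON, SUS and RES libraries, and a log2 fold change of 1.00 in SUS vs. CON mice (SE 0.43, edgeR adjusted p = 0.128). Itgam, Itgal and Itgb1 had log2 fold changes between -0.03 and 0.28 in both contrasts against CON, and none had an unadjusted p under 0.05.

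**Figure D3:**
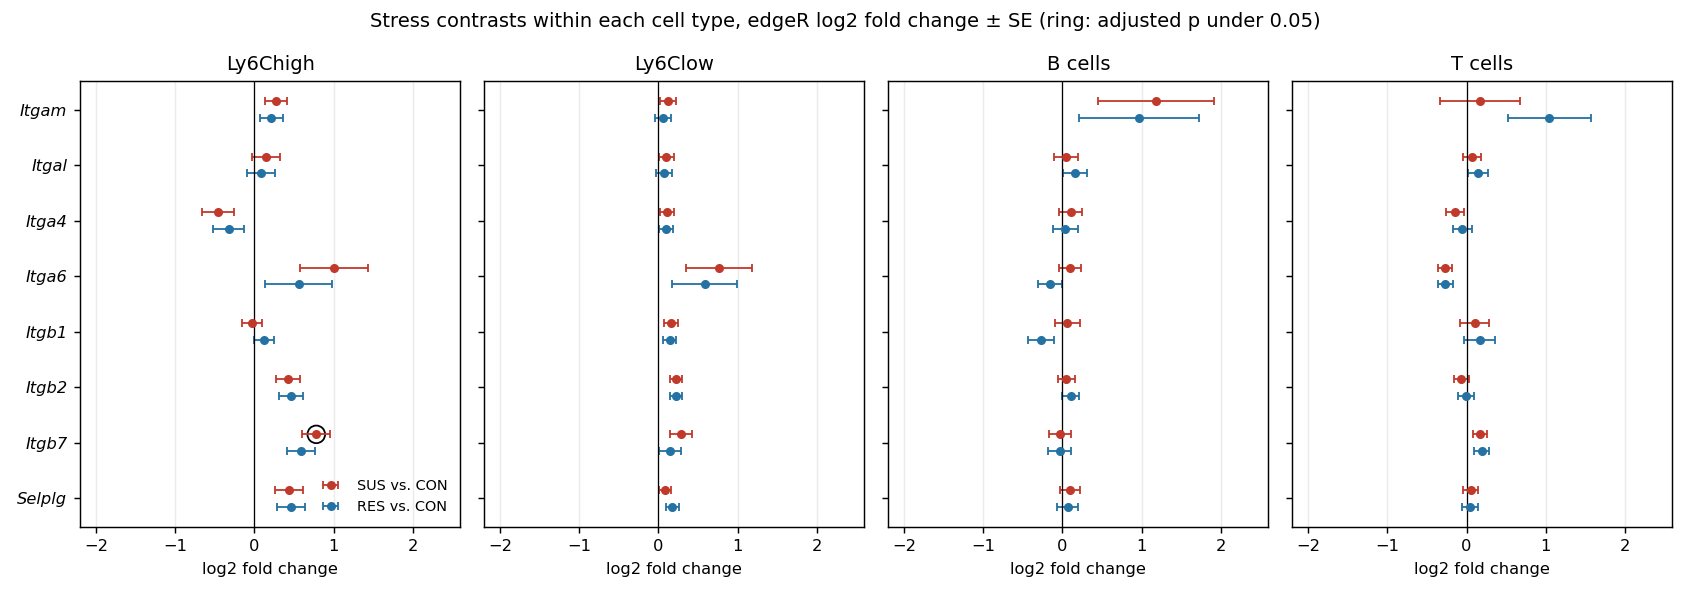
Log2 fold change of each gene in SUS vs. CON and RES vs. CON mice within each cell type, from edgeR, with error bars of 1 SE and a ring where adjusted p was under 0.05. The only ring is Itgb7 in Ly6Chigh monocytes of SUS mice, at 0.78.

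Red cell markers and Ly6Chigh monocyte markers moved with these differences in Ly6Chigh monocytes. The 6 red cell markers, hemoglobins included, summed to 343 to 1215 CPM in CON, 1097 to 8984 CPM in SUS and 1077 to 4348 CPM in RES libraries, and their mean log2 level was 1.89 higher in SUS than in CON libraries (p = 0.00216 in a two-sided exact permutation test, adjusted p = 0.0468 over 108 comparisons). With this marker level as a covariate, the Itgb7 log2 fold change was 0.24 (edgeR adjusted p = 0.928) and 1 gene in all passed adjusted p. On that mean log2 level every SUS and RES library lay above every CON library. The covariate thus nearly repeats the split into stressed and unstressed mice, so fits with it cannot separate red cell RNA from stress. Neutrophil markers, 10 in the list, summed to 6.48 to 605 CPM in CON, 64.9 to 1987 CPM in SUS and 74.9 to 1036 CPM in RES libraries, in a gate that excluded Ly6G+ cells. Their mean log2 level was 0.96 higher in SUS than in CON libraries but did not pass (exact permutation p = 0.288, adjusted p = 0.576). In RES vs. CON libraries the difference was 0.57 (exact permutation p = 0.511, adjusted p = 0.77). The 9 platelet markers summed to 11.1 to 14.7 CPM in CON, 8.03 to 31.8 CPM in SUS and 10.9 to 28.7 CPM in RES libraries. Their mean log2 level was 0.55 higher in SUS than in CON libraries but did not pass (exact permutation p = 0.0584, adjusted p = 0.308). With the platelet level as covariate, the Itgb7 log2 fold change was 0.69 (edgeR adjusted p = 0.104), and 83 genes in all passed adjusted p. Mean level of the 5 Ly6Chigh monocyte markers was itself 0.67 higher on the log2 scale in SUS libraries (exact permutation p = 0.00216, adjusted p = 0.0468).

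Gene length moved with them as well. Over protein-coding genes with a mean of at least 10 CPM in Ly6Chigh monocytes, the median log2 fold change of SUS vs. CON was 0.65 for 726 genes with at most 2000 bases of exon, 0.31 for 2141 genes of 2000 to 4000 bases, 0.08 for 1968 genes of 4000 to 6000 bases and -0.26 for 1631 genes above 8000 bases. Itgb7 (2770 bases) and Itgb2 (3052 bases) fall in the group with a median of 0.31, Selplg (4272 bases) in that with 0.08, and Itga4 (13978 bases) and Itga6 (9025 bases) in that with -0.26. In RES vs. CON the medians of these length groups, in the same order, were 0.50, 0.27, 0.10 and -0.17. An alternative chosen after seeing the data removed each library's trend on exon length. The SUS vs. CON log2 fold change of Itgb7 was then 0.40 (edgeR adjusted p = 0.0832), while the median of all genes moved to -0.23. The part of red cell RNA, platelet RNA, neutrophil RNA and RNA length in these differences was not tested further.

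**Figure D4:**
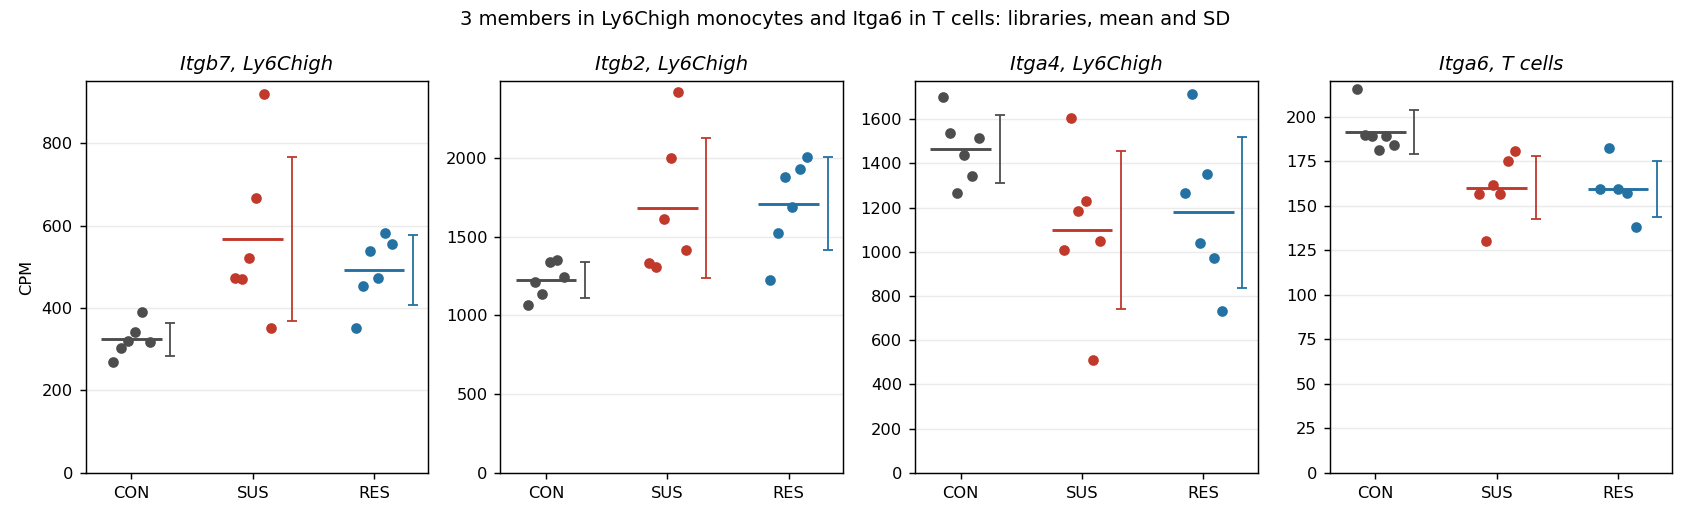
CPM on a linear axis from 0 for Itgb7, Itgb2 and Itga4 in Ly6Chigh monocytes and for Itga6 in T cells, with 1 point per library, a line at the group mean and a side bar of SD (n = 6, or 5 for T-cell RES). In T cells the CON and SUS points of Itga6 do not overlap, and for Itgb7 5 of 6 SUS points lie above all CON points.

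In Ly6Clow monocytes no member was called after stress. None of 8 members passed on adjusted p in SUS vs. CON mice by edgeR, where 0.241% of 19521 genes did, and none in RES vs. CON mice, where 0.0256% did. Both thresholds were passed by 0.0871% and 0.0154% of all genes and by 0 members, with edgeR or DESeq2. An unadjusted p under 0.05 was reached by 1 member in SUS vs. CON and by 2 in RES vs. CON mice, against 9.51% and 9.67% of all genes, and by none in SUS vs. RES mice (3.79% of all genes). Itgb2 was 1630, 1780, 1863 and 2094 CPM in CON, 2050 to 2349 CPM (median 2140) in SUS and 1920 to 2378 CPM (median 2196) in RES libraries. CON overlapped SUS only between 2050 and 2094 CPM, and the log2 fold change was 0.22 in both contrasts against CON (SE 0.08, edgeR adjusted p = 0.272 in SUS and 0.301 in RES). Itgb7 was 154, 187, 204 and 237 CPM in CON and 167 to 312 CPM (median 231) in SUS libraries, with a log2 fold change of 0.29 (SE 0.14, edgeR adjusted p = 0.552).

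In B cells no member reached an unadjusted p under 0.05 in any of the 3 contrasts. Of 17620 genes, 3.42% did in SUS vs. CON mice (0.00568% on adjusted p), 3.18% in RES vs. CON mice and 1.36% in SUS vs. RES mice. Leaving Itgam aside, which was at 0.298 to 3.25 CPM in this gate, the log2 fold changes against CON lay between -0.27 and 0.16. Itgb7 was 207 to 293 CPM (median 262) in CON and 191 to 332 CPM (median 235) in SUS libraries, and 170.0, 236, 254, 287 and 291 CPM in RES libraries. These B-cell groups overlapped throughout. Itgb1 was 33.1 to 42.5 CPM in CON libraries and 28.0, 28.2, 29.4, 36.0 and 41.7 CPM in RES libraries, and library 52, left out because its markers went against its label, held 285 CPM. NK markers summed to 3.22 to 7.31 CPM in CON and 15.7 to 41.4 CPM in SUS B-cell libraries, and the 5 Ly6Chigh monocyte markers to 4.19 to 10.01 CPM and 10.95 to 34.75 CPM. Their mean log2 levels were 1.35 and 1.00 higher in SUS libraries (two-sided exact permutation tests, adjusted p = 0.0468 for each), and their part in the Itgam values was not tested.

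T cells gave 1 member whose CON and SUS libraries did not overlap. Itga6 was 181 to 216 CPM (median 189) in CON and 130.4 to 180.8 CPM (median 159) in SUS libraries, and 138, 157, 159.7, 159.7 and 183 CPM in RES libraries. The log2 fold change was -0.27 in both contrasts (SE 0.09, edgeR adjusted p = 0.511 in SUS vs. CON and 0.876 in RES vs. CON mice), so neither passed over 18860 genes. Groups did not overlap for 0.345% of all tested genes in SUS vs. CON T cells (0.143% with SUS lower). Over all cell types and contrasts this was the case for 1 of 96 member comparisons and for 0.136% to 6.96% of all genes. For Itga6 in SUS vs. CON T cells the exact two-sided permutation test on log2 CPM gave p = 0.00216, the smallest that 6 against 6 allows, and adjusted p = 0.139 over the 96.

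No T-cell member was called. On adjusted p, 0.0424% of all genes passed in SUS vs. CON mice by edgeR and 0.0265% passed both thresholds, against 0 members by edgeR or DESeq2. An unadjusted p under 0.05 was reached by 1 member (Itga6) in SUS vs. CON mice, against 4.8% of all genes, and by 2 members (Itga6 and Itgb7) in RES vs. CON mice, against 4.11%. No member reached it in SUS vs. RES mice, where 2.39% of genes did. Itgb7 was 414 to 536 CPM (median 503) in CON and 488 to 624 CPM (median 535) in SUS libraries, and 489, 521, 553, 608 and 618 CPM in RES libraries. The log2 fold changes were 0.17 and 0.19 (SE 0.09 each, edgeR adjusted p = 0.999 and 1.00). Counts of Itgam in this gate were low, and its RES values of 0.789, 1.65, 4.08, 5.99 and 7.54 CPM spanned a wider range than the CON values of 0.826 to 3.82 CPM.

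The difference of the stress effect between cell types was tested in 1 edgeR fit of all 12 groups, with adjusted p under 0.05 as the rule. The SUS vs. CON effect on Itgb7 was 0.85 higher on the log2 scale in Ly6Chigh monocytes than in B cells (SE 0.21, edgeR adjusted p = 0.00921), where 6.18% of 24248 genes passed. That on Itgb2 was 0.51 higher in Ly6Chigh monocytes than in T cells (SE 0.15, edgeR adjusted p = 0.0474), where 3.22% passed. The Itgb7 difference was 0.65 to 0.95 with 1 of 50 libraries left out in turn and passed each time (edgeR adjusted p up to 0.0439). The Itgb2 difference was 0.38 (edgeR adjusted p = 0.158, without Ly6Chigh SUS replicate 14) to 0.58, and it missed the threshold without any 1 of 17 of the 50 libraries. Those were Ly6Chigh CON replicates 1, 4, 7 and 16 and SUS replicates 8, 11 and 14, T-cell CON replicates 56, 59, 62 and 68 and SUS replicates 54, 63, 66 and 69, B-cell SUS replicate 45 and B-cell RES replicate 37. With the exon length trend removed these differences were 0.48 (edgeR adjusted p = 0.104) and 0.23 (edgeR adjusted p = 0.312). Between the monocyte classes, the effect on Itgb7 differed by 0.52 (SE 0.22, edgeR adjusted p = 0.245). None of the 6 differences of the RES vs. CON effect had a member past the rule, where 0.00412% to 1.65% of all genes passed (without Ly6Chigh SUS replicate 14, Itgb7 passed between Ly6Chigh monocytes and B cells, edgeR adjusted p = 0.0473), and none of the 4 remaining SUS vs. CON differences did, where 0.00412% to 0.363% passed.

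Ratios between subunits were taken within each library, from CPM not divided by exon length. They were limited to genes with at least 10 counts in every library of a cell type, which gave 57 comparisons. None passed after adjustment (exact permutation tests, smallest adjusted p = 0.370), and 3 had an unadjusted p under 0.05. In Ly6Chigh monocytes the log2 ratio of Itgb7 to Itgb1 averaged -0.06 ± 0.32 over CON libraries, 0.71 ± 0.65 over SUS libraries and 0.41 ± 0.32 over RES libraries (SD, n = 6 each). The exact permutation p was 0.0130 for SUS vs. CON and 0.0368 for RES vs. CON, and 4 of 6 libraries in each stressed group lay above all CON libraries. The log2 ratio of Itga4 to Itga6 was 8.52 ± 0.80 in CON and 6.90 ± 0.90 in SUS libraries (SD, n = 6 each, exact permutation p = 0.00866). Without division by length, these values do not tell which gene of a pair was higher. Per kb of exon, the CON means in Ly6Chigh monocytes were 0.50 for Itgb7 to Itgb1 and 7.89 for Itga4 to Itga6.

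Genes that act with the members were followed by lists of other alpha and beta chains, selectins and their ligands, ligand-modifying enzymes, integrin ligands and integrin activators. In Ly6Chigh monocytes of SUS vs. CON mice, 1 of 9 tested other alpha chains and 1 of 25 tested activators passed both thresholds, against 3.45% of all genes. Itga1, an alpha chain of a collagen receptor, fell from a median of 159 CPM (109 to 172) in CON to 63.6 CPM (48.5 to 146) in SUS libraries, with a log2 fold change of -1.04 (SE 0.23, edgeR adjusted p = 0.00554). Parvg, a parvin that links integrins to actin, rose from a median of 21.4 CPM (12.9 to 23.9) to 52.4 CPM (23.8 to 89.6), with a log2 fold change of 1.43 (SE 0.27, edgeR adjusted p = 0.00201). In RES vs. CON mice Parvg rose with a log2 fold change of 1.02 (SE 0.27, edgeR adjusted p = 0.0318), and no other gene of the lists passed both thresholds. In SUS vs. CON mice neither gene passed adjusted p with the red cell covariate (Itga1 -0.91, Parvg 0.84, edgeR adjusted p = 0.50 and 0.609) or the platelet covariate (0.0900 and 0.0540), and Itga1 did not with the exon length trend removed (0.0630). The red cell covariate nearly repeats the split into stressed and unstressed mice, as given above. In RES vs. CON mice Parvg missed adjusted p with the red cell covariate (0.57, edgeR adjusted p = 0.999), the platelet covariate (0.137), the exon length trend removed (0.0988), and any 1 of 7 libraries left out, CON replicates 1, 4, 7 and 10 and RES replicates 9, 15 and 18 (0.0549 to 0.0978).

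By adjusted p alone, which passed 12.6% of all genes in SUS vs. CON Ly6Chigh monocytes, the lists gave few further genes, named here after their values were seen. Of 25 tested activators 3 were higher and 0 lower, of 9 other alpha chains 0 were higher and 1 lower (Itga1), of 3 other beta chains 1 was higher, of 11 ligand-modifying enzymes 1 was higher and of 5 integrin ligands none passed. The activators were Parvg, Fermt3 (kindlin-3), which rose from a median of 293 CPM to 473 CPM (log2 fold change 0.72, SE 0.19, edgeR adjusted p = 0.0137), and Snx17 (0.65), the beta chain was Itgb5 (0.70) and the enzyme was the sialyltransferase St3gal4 (0.60). None of these passed with the red cell or the platelet covariate (edgeR adjusted p = 0.734 to 0.984 for the 4 genes other than Parvg with the former), and Itgb5, Snx17 and St3gal4 did not with the exon length trend removed. St3gal4 also missed the threshold without any 1 of 8 libraries (CON replicates 1, 4, 7 and 13, SUS replicates 2, 8, 11 and 14), and Itgb5 without CON replicate 1. Medians of the lists ran from -0.88 for the 9 other alpha chains to 0.57 for 5 integrin ligands, beside -0.05 for all genes. No gene of these lists passed on adjusted p in Ly6Clow monocytes, B cells or T cells in either contrast against CON by edgeR. An unadjusted p under 0.05 was seen in 0 to 3 genes of a list, with 3 to 26 genes tested in each. The shares of all genes in SUS vs. CON and RES vs. CON mice were 9.51% and 9.67% in Ly6Clow monocytes. They were 3.42% and 3.18% in B cells and 4.8% and 4.11% in T cells. The counts are ranges over all lists and contrasts, so none is paired with its own share and no result is read from them.

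Levels in CON mice are given for 3 genes of these lists, named after their values were seen, as a description. Itgax (CD11c), an alternative partner of Itgb2, was 308 to 415 CPM in Ly6Clow and 7.86 to 17.1 CPM in Ly6Chigh monocytes (log2 fold change of Ly6Chigh vs. Ly6Clow -5.00). Itgae (CD103), a partner of Itgb7, was 83.4 to 155 CPM in T cells and at most 4.78 CPM in any CON library of another cell type. Fut7, the fucosyltransferase that completes the selectin-binding sugar on PSGL-1, was 12.1 to 20.9 CPM in CON monocytes, 0.208 to 2.51 CPM in T cells and at most 0.0254 CPM in B cells.

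Over the 12 group means of log2 CPM, the members were compared with 9415 protein-coding genes of at least 10 CPM in some group. These correlations describe mainly cell type, since 3 group means share each, and carry no test. The genes closest to Itgam included Metrnl (Pearson r = 0.999) and Cd300lb (r = 0.998). Those closest to Itgal were Lair1 (r = 0.998), Nab1 (r = 0.992) and Dgkh (r = 0.991), to Itga4 Tet2, Ace and Usp32 (r = 0.992 to 0.994), and to Itga6 Slc16a1, Pdk1 and Abhd8 (r = 0.986 to 0.988). Itgb1 was closest to P4ha1, Lpcat4 and Prkar2a (r = 0.989 to 0.990), Itgb2 to Svil, Ntng2 and Ifngr1 (r = 0.994), Itgb7 to Pik3cd (r = 0.991), Sugt1 and Hk1, and Selplg to Vps26b, Agpat5 and Atp10a (r = 0.990 to 0.992). Among the members, Itgb2 followed Itgb1 (r = 0.953), Itgam (r = 0.949) and Itgal (r = 0.936), whereas r was 0.02 between Itgb7 and Itgb2.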

How the data were processed

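RNA was sequenced from sorted blood leukocytes with a stranded total RNA kit for low input. The authors aligned reads with HISAT2 to mm10, counted them per Ensembl gene with HTSeq and analysed them with DESeq2, per the labels' processing notes and the study's methods. The strand option and the handling of multimapping reads are not given in the sources used here. The deposited table holds raw read counts per gene, with no normalization by the authors.

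Groups came from the condition and cell type labels. Genes were matched by Ensembl identifier, and positions and exon lengths came from GENCODE M21 (GRCm38). The members and gene lists were chosen with earlier results of these data known. Levels are CPM with TMM factors over the 68 used libraries, and log2 levels add 0.5 CPM. Tests were edgeR quasi-likelihood fits (version 4.0.16) with filterByExpr and Benjamini-Hochberg adjustment over all tested genes, within each cell type, across CON libraries, or over 12 groups, and R was version 4.3.3. DESeq2 (version 1.42.0) was an alternative, as were other scalings, filters and covariates. Each library was left out in turn in the fits within cell types and across CON libraries, and 50 libraries in the fit of 12 groups, 36 of them chosen after seeing the data. Calls needed an adjusted p below 0.05 together with a log2 fold change beyond 1 in either direction. Ratios and marker levels were compared by two-sided exact permutation tests, whose smallest p was 0.00216 for 6 against 6 libraries. Named genes were the 8 members, called genes of each list (at most 5 by fold), and the 3 genes most like each member. Results for some genes that met these rules are not reported here. Counts drawn with known changes in the Ly6Chigh SUS vs. CON fit of 16955 genes were recovered for 63 of 109 genes at a log2 fold of 1 and 85 of 91 at 2. The changed genes were drawn only from genes above a minimum mean level, and no other difference between groups was put in. Besides these, 5 unchanged genes were called. The shares hold for that setting only. Overlapping genes on the same or opposite strand (Gm49368 in Itgam, Cerkl in Itga4, 4 small genes in Itga6) held at most 339 counts in any library. Of 161 library pairs of the same group, 0 held identical counts.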

Additional observations from a re-analysis of the deposited data

Results flagged for a closer look

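In 96 groups of libraries (8 genes in 12 groups), 5 held a library whose gap to the next was beyond Dixon's limit, and chance alone flags about 1 group in 20. These were Itgam at 241 CPM in Ly6Clow CON replicate 24, against 199.9 CPM in the next library, and Itga4 at 2607 CPM in Ly6Clow RES replicate 23, against 2171 CPM. Itga6 stood apart at 31.8 CPM in Ly6Clow SUS replicate 22, against 11.2 CPM, and at 216 CPM in T-cell CON replicate 53, against 189.7 CPM. Selplg was 953 CPM in Ly6Chigh SUS replicate 14, against 605 CPM in the next. That library also held the highest Itgb7 level, 919 CPM, and the highest red cell marker sum of the Ly6Chigh libraries, 8984 CPM. Without it the log2 fold changes of SUS vs. CON were 0.55 for Itgb7, 0.26 for Itgb2 and 0.21 for Selplg.

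A difference of the stress effect between cell types passed adjusted p under 0.05 in edgeR for 2 member and cell type pairs. For Itgb7 the SUS vs. CON effect was 0.85 higher on the log2 scale in Ly6Chigh monocytes than in B cells. For Itgb2 it was 0.51 higher in Ly6Chigh monocytes than in T cells, a difference that missed the threshold without any 1 of 17 of the 50 libraries left out in turn (0.38 without Ly6Chigh SUS replicate 14).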

How the results depend on the processing

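Of 1285 recomputed counts of called members, ratio counts, orders per length and Itgb7 values, 1251 were rated the same. For Itgb7 values this meant the same direction and side of the threshold. For counts it meant equal or close to the reported count, so the 1251 include counts that changed. Between both monocyte classes, for example, 3 members in place of 2 were called without Ly6Chigh CON replicate 1. The log2 fold change of Itgb7 in SUS vs. CON Ly6Chigh monocytes was 0.24 with the red cell covariate (edgeR adjusted p = 0.928), 0.69 with the platelet covariate (adjusted p = 0.104) and 0.40 with the exon length trend removed (adjusted p = 0.0832). Under the other settings that keep all libraries it lay from 0.69 to 0.81, and from 0.55 to 0.87 with a library left out. With adjusted p alone, 1 member was called in SUS vs. CON Ly6Chigh monocytes in place of 0, 5 in place of 2 between both monocyte classes and 8 in place of 4 between Ly6Chigh monocytes and T cells. The 1 member whose SUS effect differed between Ly6Chigh monocytes and B cells fell to 0 with the exon length trend removed. The 1 between Ly6Chigh monocytes and T cells, Itgb2, fell to 0 with exon length removed, with no low-count filter, with DESeq2 size factors, with libraries 52 and 70 kept and with only both cell types in the fit. Leaving out 1 of 50 libraries, 36 of which were chosen after seeing the data, gave 0 to 2 members between Ly6Chigh monocytes and T cells, 1 to 2 between Ly6Chigh monocytes and B cells (2 without Ly6Chigh SUS replicate 5), and 0 to 1 for the RES effect in Ly6Chigh monocytes minus B cells. Itgb2 passed by edgeR in none of the 17 fits named beside that result, while Itga6 passed between Ly6Chigh monocytes and T cells without Ly6Chigh CON replicate 1 or SUS replicate 2, and Itgb7 without SUS replicate 5 or 17 or CON replicate 13.

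Of 2873 values of single genes, 2779 kept their direction and side, 4 reversed, 27 passed adjusted p only under the alternative and 63 lost it. Those of the 6 listed genes were recomputed after seeing the data. Selplg in SUS vs. CON Ly6Chigh monocytes was -0.058 with the red cell covariate. With libraries 52 and 70 kept, the RES effect in Ly6Chigh monocytes minus B cells was -0.052 for Itgb2 and -0.53 for Selplg, and that in B minus T cells was 1.00 for Itgb1. In RES vs. CON Ly6Chigh monocytes, Itgb7, Itgb2 and Selplg passed adjusted p when only both groups were in the fit (0.00651, 0.0191 and 0.0389, edgeR). Of all genes, 585 passed both thresholds in SUS vs. CON Ly6Chigh monocytes, 1 with the red cell covariate, 54 with the platelet covariate, 286 without SUS replicate 14 and 893 without SUS replicate 17. In RES vs. CON the 169 became 506 with DESeq2, 259 with only both groups in the fit, 38 with exon length removed, 1 with the platelet and 0 with the red cell covariate. DESeq2 moved the median of all genes in Ly6Chigh SUS vs. CON by -0.11. No cause of these changes was tested. In Ly6Chigh monocytes the red cell covariate nearly repeats the split into stressed and unstressed mice, so its fits cannot separate red cell RNA from stress. No paired analysis was possible because the labels give each library its own number and name no mouse.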
